A study of Homo sapiens with 2 samples.

Results

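ATF3-high cells were a group of 147 cells among 2612 PC9-like, persister-like cells, or 5.63% of them, in a single-cell RNA sequencing run of 8748 barcodes. They were chosen by their own measured values. A cell had to hold at least 1000 genes, at most 20% of its UMIs (unique molecular identifiers, each standing for 1 captured RNA molecule) from mitochondrial genes, EGFR at 150 CPM (UMIs of the gene divided by all UMIs of the cell and scaled to 1e6) or more, and no NKX2-1 UMI. The summed level of IGFBP3, FN1, HLA-B and CCDC80 had to reach 800 CPM. Within this gate of 2612 cells, a member carried ATF3 with at least 2 UMIs and at 60 CPM or more. The comparison cells were the 2023 cells of the same gate with 0 ATF3 UMIs, and 442 cells lay between both groups.

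The run pooled human lung adenocarcinoma lines that had been tagged with hashtag oligonucleotides before mixing. PC9 cells, which carry an activating EGFR deletion, were left untreated or kept in 150 nM osimertinib, an EGFR inhibitor, for 4 or 11 days. NCI-H358 cells were left untreated or kept in 500 nM sotorasib, a targeted inhibitor, for 8 days. No barcode of the count matrix was tied to its hashtag here, so the whole run was 1 sample, both days of osimertinib stayed mixed, and no value below has a replicate or a test; intervals cover the counting error of UMIs only.

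ATF3 encodes a basic leucine zipper transcription factor of the ATF/CREB family. It is low in most resting cells and is induced within hours by many stresses, among them amino acid shortage and endoplasmic reticulum stress through ATF4, DNA damage, and growth factor or cytokine signals through MAP kinases. ATF3 pairs with other leucine zipper proteins such as JUN and binds AP-1 and CRE sites, at which it can repress or activate. Drug-tolerant persister (DTP) cells are the small fraction of a cancer cell line that lives through a targeted drug without a resistance mutation.

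The label of the gate was checked on genes that the rule did not use. SFTA3, a gene of the H358-like cells, was at 1.22 CPM in the members, 1.02 CPM in the comparison cells and 171 CPM in H358-like persister-like cells. DUSP6, a phosphatase that follows ERK activity, was at 3.25 CPM in the members, 6.26 CPM in the comparison cells and 48.8 CPM in PC9-like naive-like cells (a 4-gene sum under 400 CPM). The proliferation marker MKI67 was at 75.9 CPM in the members and 220 CPM in the naive-like cells, and B2M, the light chain of MHC class I, was at 1249 and 240 CPM. Members and comparison cells thus sat on the same side of each of these genes. Of 12 markers of immune, fibroblast and endothelial cells, 6 had 0 UMIs in the members, and their summed level was 14.2 CPM in the members and 17.5 CPM in the comparison cells. A list drawn up for H358-like cells summed, without the cytidine deaminase gene CDA, to 217 CPM in the members, 231 CPM in the comparison cells and 1915 CPM in H358-like persister-like cells. CDA was at 335, 520 and 32.2 CPM in these groups and so did not mark H358-like cells here.

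Depth was alike in members and comparison cells and differed for the cells between. The median cell held 30448 UMIs among the members, 31697 among the comparison cells and 42048 among the cells between. The median mitochondrial share was 2.39% in the members and 3.50% in the comparison cells. Scrublet, a doublet caller, marked 2 members (1.36%), 128 comparison cells (6.33%) and 47 cells between (10.6%). Phase scores above 0 were found in 25.3% of the members and 28.8% of the comparison cells after each cell was thinned to 5000 UMIs. The 145 genes 2-fold higher and 17 genes 2-fold lower described below became 144 and 18 when comparison cells were weighted to the members' UMI deciles, 150 and 18 without the Scrublet calls, and 142 and 17 with limits of 2000 genes and 10% mitochondrial UMIs.

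ATF3 itself, at chr1:212565334-212620777 on the plus strand (hg38, GENCODE 44), spanned 60.3 to 755 CPM among the members, with a median of 112 CPM. It gave 2 UMIs in 45 members, 3 to 5 in 65 and 6 or more in 37, with 20 UMIs as the highest value. The 3 members just inside the limit had 60.3, 60.5 and 60.6 CPM, and the 3 cells just outside it had 59.9, 59.1 and 58.8 CPM. Of the cells between, 347 had 1 ATF3 UMI and 95 had at least 2 UMIs but less than 60 CPM. These values chose the groups and support nothing by themselves. Cells that met the same ATF3 limit made up 0.252% of PC9-like naive-like cells (4 cells, too few to compare), 6.02% of H358-like persister-like cells and 4.49% of H358-like naive-like cells.

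Promoter windows were looked up for 16 genes and found for 13, of which 4 (ATF3 and 3 named genes) held an AP-1, CRE or ATF4 composite match and 9 held none. Those 4 are shown because they hold a match, so they do not stand for the named genes as a whole. Each run is the 250 bases before the transcription start in RefSeq (GRCh38.p14), 5′ to 3′ on the gene's strand, with motif matches in capitals. The motifs searched on both strands were AP-1 (TGANTCA), CRE (TGACGTCA), the ATF4 composite site (TGATGNAA), the E-box (CACGTG), kB (GGANTTTCC) and TEAD (CATTCC). Only exact matches were counted, so a window without a match can still hold a variant of these sites.

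ATF3, chr1:212565157-212565406, plus strand: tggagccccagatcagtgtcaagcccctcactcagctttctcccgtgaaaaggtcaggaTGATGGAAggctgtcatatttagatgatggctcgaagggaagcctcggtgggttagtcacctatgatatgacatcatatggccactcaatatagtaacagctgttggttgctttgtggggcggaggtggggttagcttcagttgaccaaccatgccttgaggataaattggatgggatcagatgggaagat

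DUSP1, chr5:172771196-172771445, minus strand: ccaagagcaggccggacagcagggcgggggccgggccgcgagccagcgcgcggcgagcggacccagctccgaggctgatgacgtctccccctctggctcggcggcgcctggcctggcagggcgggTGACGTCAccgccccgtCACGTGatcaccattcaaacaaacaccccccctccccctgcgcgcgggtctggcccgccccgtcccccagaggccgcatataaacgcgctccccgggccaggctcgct

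MAFF, chr22:38201744-38201993, plus strand: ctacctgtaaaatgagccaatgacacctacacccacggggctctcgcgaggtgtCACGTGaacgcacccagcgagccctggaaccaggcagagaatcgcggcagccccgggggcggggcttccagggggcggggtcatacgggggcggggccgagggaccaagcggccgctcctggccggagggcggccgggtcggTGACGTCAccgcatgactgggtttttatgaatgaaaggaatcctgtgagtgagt

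DDIT3, chr12:57520515-57520764, minus strand: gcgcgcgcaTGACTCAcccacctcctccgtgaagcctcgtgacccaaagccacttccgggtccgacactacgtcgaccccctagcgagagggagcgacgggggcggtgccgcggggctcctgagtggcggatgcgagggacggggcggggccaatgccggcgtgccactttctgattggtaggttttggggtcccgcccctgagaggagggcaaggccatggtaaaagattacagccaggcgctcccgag

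In the ATF3 window the match is to the ATF4 composite site, 191 bases before the start. DUSP1 and MAFF each hold a CRE and an E-box, with the CRE 125 and 54 bases before the start, and DDIT3 holds an AP-1 match 241 bases before it. Over the 27305 genes with a window, a CRE was found in 2.03%, an AP-1 match in 8.06%, an ATF4 composite match in 3.89%, an E-box in 7.73%, a kB match in 1.79% and a TEAD match in 14.3%. Among the 8536 of these genes tested in the contrast below, the shares in the same order were 3.83%, 5.89%, 2.06%, 11.5%, 2.18% and 13.1%. Windows for ATF3 were listed at 2 starts and only the first held a match, the second MAFF start held no CRE, and no window at all was found for GADD45A. A comparison of motif shares between groups of genes is void, since a window was at hand for only 72.4% of the genes that were 2-fold higher and 52.9% of those 2-fold lower.

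Compared with cells of the same gate without ATF3, the members carried more RNA of EDN1, HBEGF, SGK1, PMAIP1, GADD45A and GDF15 and of 9 of 19 immediate early genes, and less of S100A2, SNCG, LY6D, CLIC3 and ADIRF. Of 10845 genes at 5 CPM or more in either group, 145 were 2-fold or more higher in the members, or 1.34% of genes, and 17 were 2-fold or more lower, or 0.157%. The ratio is that of summed CPM + 5, which understates the change of low genes, and the genes of the rule were left out. The median log2 ratio of all genes was 0.02. Higher genes made up 89.5% of those past 2-fold, and with TMM scaling factors the numbers were 98 higher and 29 lower. The count of higher genes was 27 when comparison cells were weighted to the members' spread over clusters, and 318 when members had to hold ATF3 with 3 UMIs and at 100 CPM. With the cluster weights 18 of the 43 named genes that were 2-fold higher stayed past 2-fold, among them EDN1, HBEGF, SGK1, PMAIP1, GADD45A and GDF15, and 1 of the 10 named genes that were 2-fold lower. Higher genes short of 2-fold with these weights included ZFP36L2 (log2 ratio 0.98), TOB1 (0.97), CCN1 (0.93), BBC3 (0.91) and KLF4 (0.90). SAT1 (0.83), TGFB2 (0.76), MAFK (0.71) and CREB5 (0.70) also fell short.

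EDN1, the vasoconstrictor peptide endothelin 1 (chr6:12290361-12297194), had the highest ratio of the named genes. Its summed level was 314 CPM (95% Poisson interval 299 to 330) in the members and 43.8 CPM (42.3 to 45.3) in the comparison cells, a log2 ratio of 2.71 (2.59 to 2.83). Across single members it ran from 0 to 5575 CPM with a median of 108 CPM, and the comparison cells ran from 0 to 2099 CPM with a median of 0. The ranges overlapped fully at the low end: 81.0% of members and 48.6% of comparison cells held an EDN1 UMI. At an equal depth of 5000 UMIs the shares were 48.6% and 15.1%, and PC9-like naive-like cells had EDN1 at 5.99 CPM in sum.

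HBEGF, a ligand of EGFR that is shed from the cell surface (chr5:140332843-140346603), was at 62.95 CPM in the members and 8.25 CPM in the comparison cells, a log2 ratio of 2.36 (2.13 to 2.58). An HBEGF UMI was found in 55.1% of members and 16.1% of comparison cells. PC9-like naive-like cells held 36.2 CPM, so that the members lay above and the comparison cells below the untreated-like state. EREG, another EGFR ligand, was at 42.2 against 8.61 CPM (log2 ratio 1.79), with 12.02% of the members' EREG UMIs in 1 cell. Among 14 measured growth factor receptors and ligands these were the 2 that passed 2-fold, and the median of the list was 0.24. EGFR, a gene of the rule, was at 428 and 416 CPM.

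SGK1, a kinase that promotes sodium transport and cell survival (chr6:134169248-134318112), was at 152 CPM in the members and 26.7 CPM in the comparison cells (log2 ratio 2.31, 2.15 to 2.47). Its median over single cells was 105 CPM in the members and 0 in the comparison cells, although the highest cell of all was a comparison cell at 2565 CPM. GADD45A, which slows the cell cycle and acts in DNA repair (chr1:67685201-67688334), was at 660 against 183 CPM (log2 ratio 1.83, 1.75 to 1.90), with medians over cells of 494 and 109 CPM. A GADD45A UMI was present in 98.0% of members and 84.9% of comparison cells, so that this gene was more strongly, and not just more often, detected. TOB1, an antiproliferative factor that recruits deadenylases, was at 263 and 74.7 CPM (log2 ratio 1.75). SAT1, which acetylates polyamines, was at 624 and 171 CPM (log2 ratio 1.84).

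The plot of values in single cells shows how far both groups overlap for these genes.

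**Figure D1:**
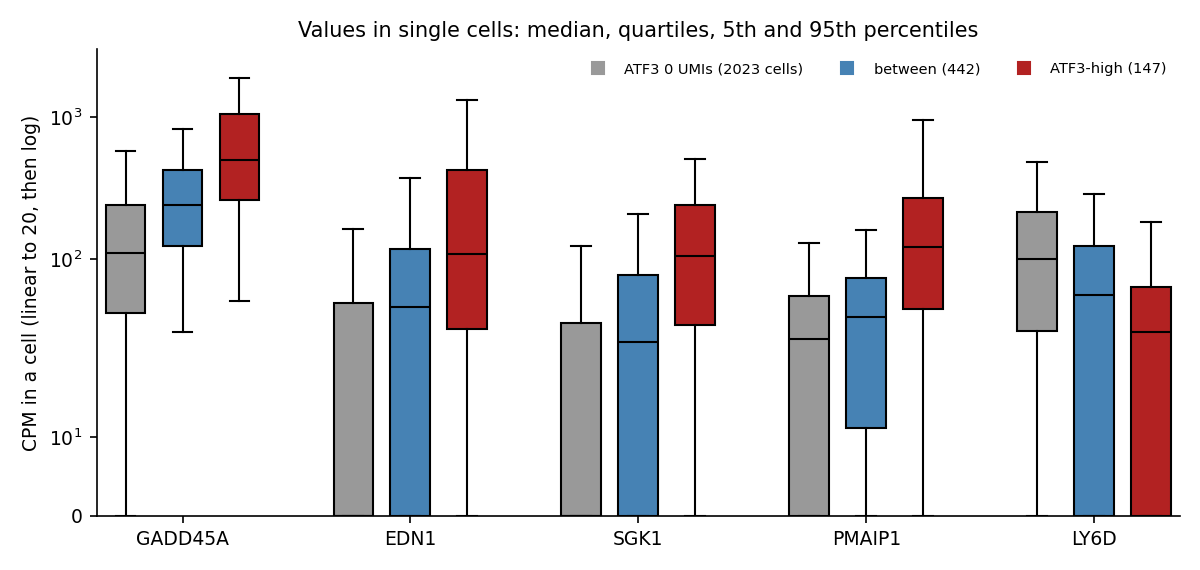
Values of 5 genes in single cells in CPM (linear to 20, then log), for 2023 comparison cells (grey), 442 cells between (blue) and 147 ATF3-high cells (red); the line is the median, the box the quartiles, the whiskers the 5th and 95th percentiles. For GADD45A, EDN1, SGK1 and PMAIP1 the ATF3-high cells lie highest with wide overlap (medians of GADD45A 494 and 109 CPM), and for LY6D they lie lowest (30.3 and 99.7 CPM).

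The BCL2 family split by member. PMAIP1, which encodes the BH3-only protein NOXA, was at 189 CPM in the members and 38.5 CPM in the comparison cells (log2 ratio 2.15, 2.02 to 2.29), and a UMI was found in 88.4% and 60.1% of cells. BBC3, which encodes PUMA, was at 20.1 and 7.09 CPM (log2 ratio 1.05). BCL2L11, which encodes BIM, was at 58.7 and 29.4 CPM (log2 ratio 0.89), short of 2-fold. BMF, another BH3-only gene, had 4.06 CPM in the members and 11.6 CPM in the comparison cells (log2 ratio -0.87). Among the genes that oppose death, MCL1 was at 106 and 64.1 CPM (log2 ratio 0.68) and BCL2L1, or BCL-XL, at 47.1 and 63.3 CPM (log2 ratio -0.39); both were picked after their values were seen. BAX, an executioner of the family picked after its value was seen, had 60.5 CPM in the members and 85.9 CPM in the comparison cells (-0.47). Of 13 measured members 2 were 2-fold higher and 0 were 2-fold lower, with a median of -0.01, which lay above 0 in 8 of 15 alternatives.

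Immediate early genes are switched on without new protein synthesis when a signal reaches the nucleus. In this list 9 of 19 measured genes were 2-fold or more higher in the members, none was 2-fold lower, and the median log2 ratio was 0.93. Besides SGK1 they included ZFP36L2, an RNA-binding protein that speeds decay of AU-rich mRNAs, at 374 and 113 CPM (log2 ratio 1.68), and the transcription factor KLF4 at 41.0 and 12.4 CPM (1.40). DUSP1, which switches off p38 and JNK and whose promoter window with a CRE is printed above, was at 181 and 61.9 CPM (1.48). EGR1, the classical member of this group, was the exception at 6.30 and 7.24 CPM (-0.12), and 18 of the 19 had a ratio above 0. Summed over the list, the median member held 2612 CPM (848 to 11313) and the median comparison cell 1313 CPM (226 to 7113). Of the 147 members 132, or 89.8%, lay above the comparison median.

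AP-1 subunits are proteins of the JUN and FOS families, and ATF3 can pair with JUN. All 7 subunits were measured and above 0, with a median of 0.71, and 3 passed 2-fold: FOSB at 26.4 and 5.50 CPM (log2 ratio 1.58), JUN at 208 and 90.3 CPM (1.16, 1.04 to 1.28) and FOS at 110 and 46.9 CPM (1.14, 0.98 to 1.30). With the cluster weights JUN was at 0.90, short of 2-fold, while FOSB and FOS stayed past it at 1.37 and 1.59. FOSL1, which depends on ERK activity, was at 34.1 and 22.1 CPM (0.53) and FOSL2 at 83.3 and 49.0 CPM (0.71). FOSB and FOS were uneven, with 13.9% and 12.04% of the members' UMIs in 1 cell. Summed AP-1 mRNA in single cells had a median of 1040 CPM in the members and 614 CPM in the comparison cells, and 85.7% of members lay above the latter.

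Other leucine zipper genes did not all follow. Among 14 measured ATF and CREB factors other than ATF3 the median was 0.10, and CREB5 alone passed 2-fold, at 21.3 and 7.93 CPM (log2 ratio 1.03). ATF4, the effector of the integrated stress response (ISR), was at 245 and 172 CPM (0.50, 0.39 to 0.60). The small MAF factors MAFF and MAFK, which lack an activation domain, were at 45.5 against 7.31 CPM (2.04) and 33.5 against 13.8 CPM (1.04), while MAFG was at 52.8 and 34.1 CPM (0.56).

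Of 25 measured genes on a list of ATF4 targets 6 were 2-fold higher and 0 were 2-fold lower. Their median was 0.54, and 6 had a ratio below 0. The pseudokinase TRIB1 was at 165 and 33.6 CPM (log2 ratio 2.14), the secreted stress cytokine GDF15 at 84.5 and 21.2 CPM (1.77), the amino acid transporter SLC38A2 at 424 and 145 CPM (1.51) and the secreted glycoprotein STC2 at 185 and 66.3 CPM (1.41). DDIT3, which encodes the pro-apoptotic factor CHOP and whose promoter window is printed above, was at 41.8 and 17.6 CPM (1.05, 0.81 to 1.29). The sixth was PPP1R15A, which restores translation by dephosphorylating eIF2α, at 157 and 62.8 CPM (1.26). With the cluster weights TRIB1 was at 0.98, SLC38A2 at 0.88 and STC2 at 0.45, all short of 2-fold. GDF15 and DDIT3 stayed past 2-fold with these weights, at 1.45 and 1.13. The serine synthesis genes PHGDH, PSAT1 and PSPH had log2 ratios of -0.35, -0.15 and -0.14; these and PPP1R15A were picked after their values were seen. Among 12 aminoacyl-tRNA synthetases, which ATF4 also controls, the median was 0.07 with 0 past 2-fold either way. Among 19 chaperones and genes of the unfolded protein response the median was 0.07 with 0 past 2-fold. In single cells the ATF4 targets summed to a median of 2301 CPM in the members and 1285 CPM in the comparison cells, and 133 members (90.5%) lay above the latter.

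CDKN1A, the p21 inhibitor of cyclin-dependent kinases, was at 44.7 and 18.6 CPM (log2 ratio 1.07, 0.83 to 1.31). It was the 1 that passed 2-fold among 8 measured D-type cyclins, their kinases CDK4 and CDK6, and inhibitors of cyclin-dependent kinases. The median of these 8 was 0.14. With the cluster weights the ratio of CDKN1A was 0.61, short of 2-fold.

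MAP kinase phosphatases had a median of 0.81 over 9 genes with 2 past 2-fold, DUSP1 and DUSP5, the latter an ERK phosphatase of the nucleus at 36.6 and 8.17 CPM (log2 ratio 1.66). ERK output genes as a whole had a median of 0.24 over 15 genes, with DUSP5 as the 1 past 2-fold. Targets of NF-kB and cytokines had a median of 0.52 over 18 genes with 2 past 2-fold, the deubiquitinase TNFAIP3 at 114 and 46.4 CPM (1.21) and the chemokine CXCL8 at 14.8 and 2.80 CPM (1.35). TNFAIP3 was at 0.33 with the cluster weights and at -0.10 within cluster 4, a group of cells described below. For CXCL8, 54.8% of the members' UMIs came from 1 cell. TGF-beta targets and mesenchymal genes had a median of 0.41 over 15 genes with 4 past 2-fold, among them TAGLN, an actin-binding protein (1.39), THBS1, a matrix protein that activates TGF-beta (1.31), and the transcription factor BHLHE40 (1.06). YAP/TEAD targets had a median of 0.26 over 19 genes, with the ligand TGFB2 (1.58) and the matrix protein CCN1 (1.27) past 2-fold.

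Cholesterol synthesis genes had a median of 0.43 over 16 genes. The sterol sensor INSIG1 (81.2 and 33.7 CPM, log2 ratio 1.15), the synthase HMGCS1 (170 and 76.0 CPM, 1.11) and the oxidase MSMO1 (73.5 and 32.1 CPM, 1.08) passed 2-fold. With the cluster weights INSIG1 was at 0.87, HMGCS1 at 0.71 and MSMO1 at 0.35, all short of 2-fold. Host genes of small nucleolar RNAs, 11 in number, had their median at 0.48, and SNHG1 ranked first at 224 and 66.2 CPM (1.68). Of 13 keratins, KRT17 and KRT6A passed 2-fold (1.42 and 1.18), with 20.9% and 36.0% of the members' UMIs in 1 cell. Both calls were lost with the cluster weights (0.12 and 0.01) and within cluster 4 (-0.43 and -0.24). The abundant KRT8 and KRT18, picked after their values were seen, had ratios of -0.01 and -0.13.

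**Figure D2:**
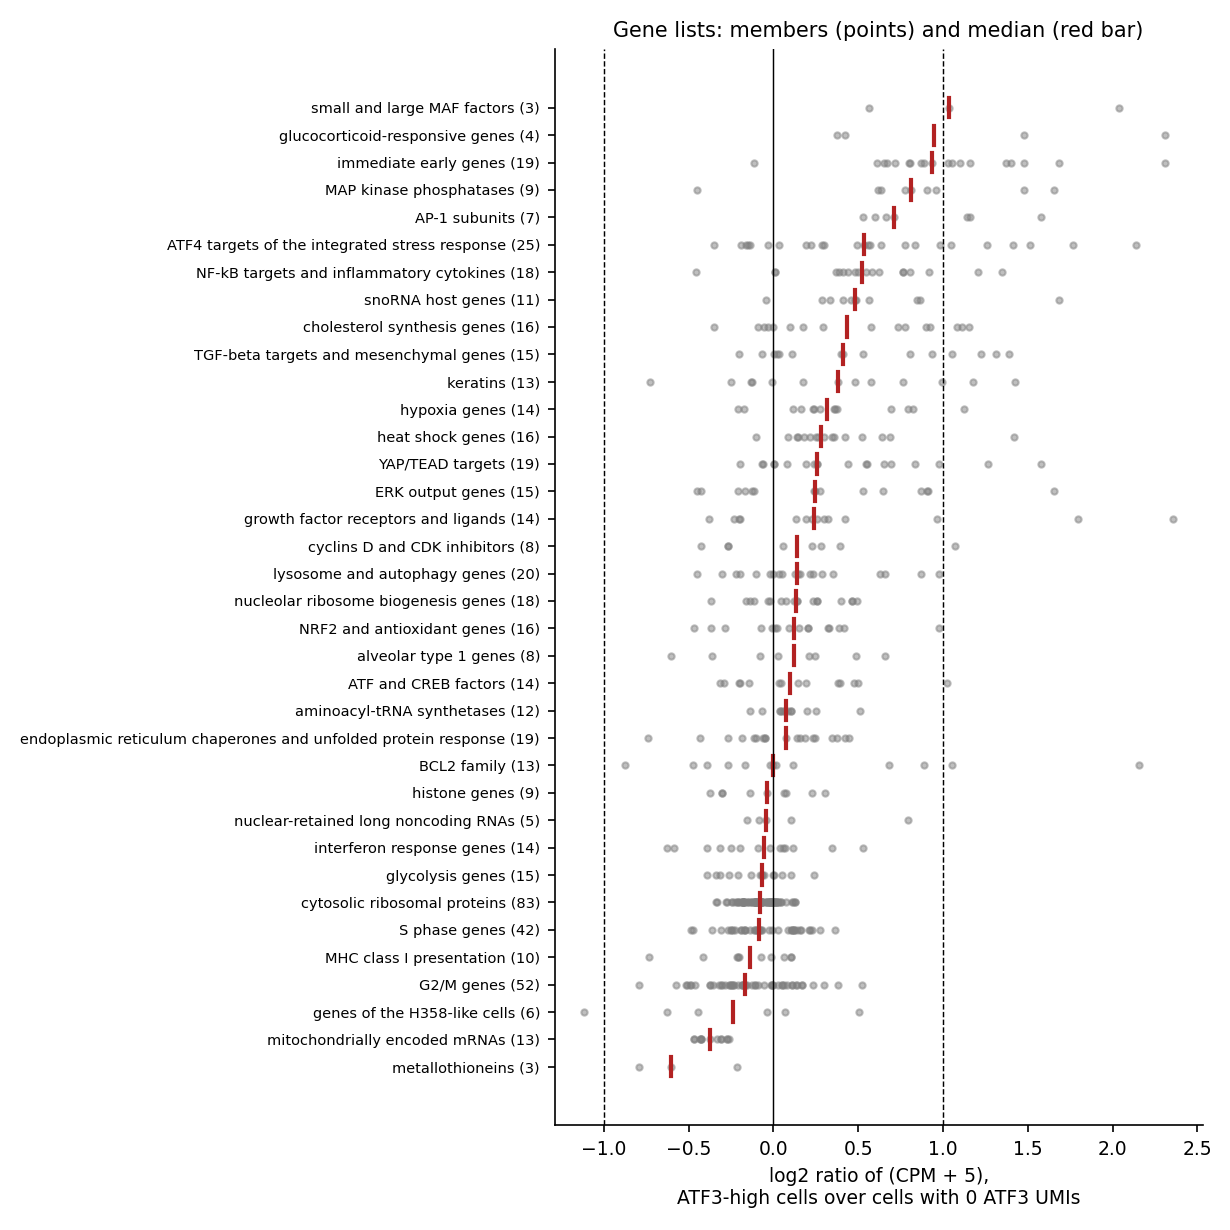
Log2 ratio of (CPM + 5) of ATF3-high cells over comparison cells (x axis) for gene lists with at least 3 measured genes (y axis, number measured in brackets); points are genes, red bars medians, dashed lines 2-fold. The medians run from 1.04 for the MAF factors to -0.61 for the metallothioneins, and 7 of 7 AP-1 subunits lie above 0.

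Lists for presentation, interferon and the cell cycle lay near or below 0. MHC class I presentation had a median of -0.14 over 10 genes and interferon response genes one of -0.06 over 14, with 0 past 2-fold in either. The immunoproteasome subunit PSMB9 was at 19.9 and 36.5 CPM (log2 ratio -0.74) and the antiviral membrane protein IFITM3 at 168 and 262 CPM (-0.63). G2/M genes had a median of -0.17 over 52 genes, and the topoisomerase TOP2A was at 124 and 220 CPM (-0.79). In single cells the order was the other way, with a median G2/M sum of 1216 CPM in the members and 985 CPM in the comparison cells, and the median ratio was 0.23 among cells with no cycling score, 0.06 with the cluster weights and 0.20 without the cells of cluster 4. The 13 mitochondrially encoded mRNAs all had ratios below 0, with a median of -0.37, beside the lower mitochondrial share given above. Cytosolic ribosomal protein genes had a median of -0.08 over 83 genes. Metallothioneins, which bind zinc and copper, had a median of -0.61 over 3 genes, with MT2A at 231 and 355 CPM.

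Of the 17 genes that were lower in the members, 1 kept its call with the cluster weights, S100A2. SNCG, which encodes gamma-synuclein (chr10:86958599-86963258), was at 118 CPM in the members and 314 CPM in the comparison cells (log2 ratio -1.38, -1.51 to -1.25; -0.76 with the cluster weights), with medians over cells of 65.5 and 272 CPM. LY6D, a membrane protein of stratified epithelia, was at 50.8 and 133 CPM (-1.31, -1.50 to -1.11), and its UMI was found in 57.8% and 82.5% of cells. The chloride channel protein CLIC3 was at 56.1 and 147 CPM (-1.31) and the adipogenesis factor ADIRF at 330 and 804 CPM (-1.27). With the cluster weights LY6D was at -0.70, CLIC3 at -0.64 and ADIRF at -0.66. ALDH3A1, an aldehyde dehydrogenase, was at 116 and 237 CPM (-1.01), and MIR205HG, the host gene of an epithelial microRNA, at 46.9 and 103 CPM (-1.06). S100A2, a calcium-binding protein, had the lowest ratio of the named genes, at 14.8 and 70.2 CPM (-1.92), but its shares of cells with a UMI were alike at 36.1% and 37.2%. Single comparison cells reached 7925 CPM of S100A2, the gene stood at 2250 CPM in H358-like naive-like cells without ATF3, and the ratio was -1.42 without the cells that Scrublet marked.

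Genes that mark other states of the persister-like cells were read across. ANKRD1, a YAP target, was at 143 and 104 CPM (log2 ratio 0.44), and 23 members and 147 comparison cells held it at 200 CPM or more. The ratio was -0.49 with the cluster weights and 0.77 without cluster 4, so its direction turned with the cluster weights. At equal depth an ANKRD1 UMI was found in 27.4% of members and 11.97% of comparison cells, and 20.7% of the members' ANKRD1 UMIs came from 1 cell. RARRES1, a retinoid-responsive membrane protein, was at 255 and 240 CPM (0.08), and HOPX, a gene of alveolar type 1 cells, at 2.44 and 6.31 CPM (-0.61), with a HOPX UMI in 7.48% of members and 10.6% of comparison cells. At equal depth these shares were 3.42% and 2.98%, and the ratio was -0.07 with the cluster weights.

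Levels were then followed over 4 steps of ATF3 within the gate: 0 UMIs (2023 cells), under 60 CPM (436), 60 to under 120 CPM (78) and 120 CPM or more (69). The 6 cells with 1 UMI at 60 CPM or more entered no step. EDN1 went from 43.8 to 95.6, 232 and 420 CPM over the steps. GADD45A went from 183 to 297, 497 and 871 CPM, and PMAIP1 from 38.5 to 52.7, 104 and 298 CPM. In SAT1 the first steps were alike, at 171 and 174 CPM, before 384 and 933 CPM. Of the 145 genes 2-fold higher in the members, 124 (85.5%) increased at every step, against 15.04% of all genes tested; the outer steps chose these genes, so this count is a description. SNCG went from 314 to 184, 121 and 114 CPM, and LY6D from 133 to 77.6, 61.7 and 36.7 CPM. G2/M genes summed to 3402, 4091, 3609 and 2483 CPM, with its maximum at the second step, whose cells were also the deepest at a median of 42414 UMIs.

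**Figure D3:**
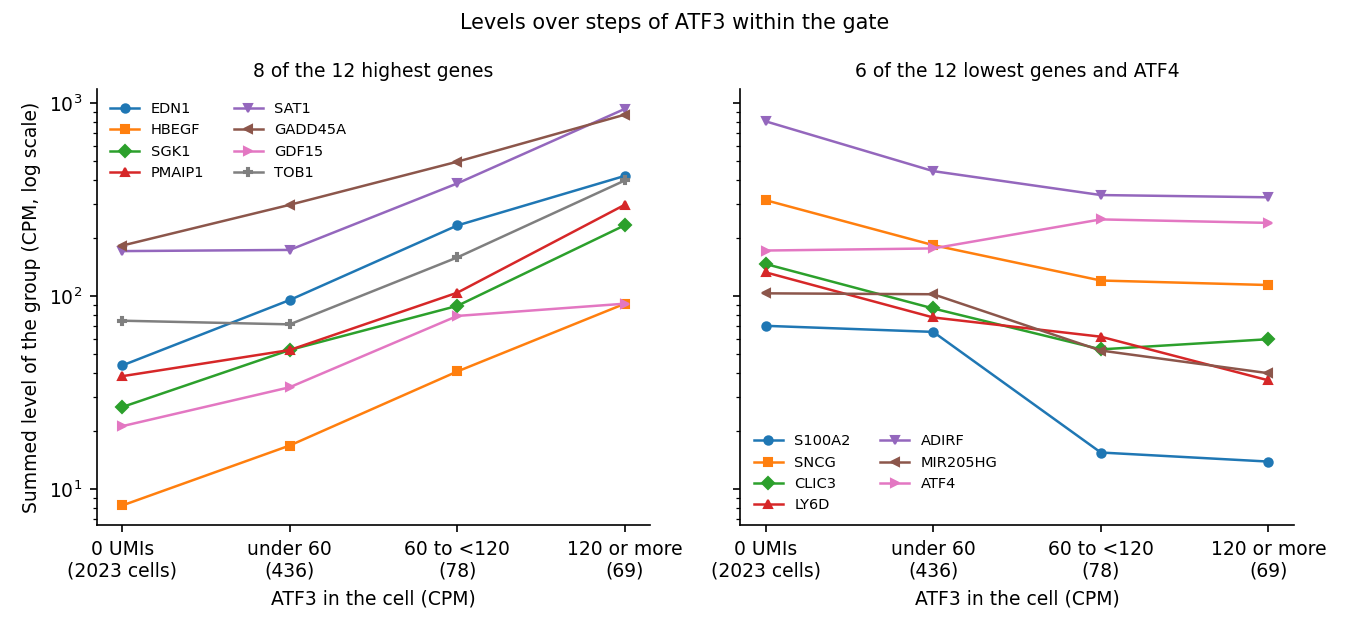
Summed level in CPM (log scale, y axis) over 4 steps of ATF3 in the cell (x axis, cells in brackets), with 8 of the 12 highest genes on the left and 6 of the 12 lowest genes with ATF4 on the right. EDN1 runs from 43.8 to 420 CPM and SNCG from 314 to 114 CPM.

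The members were not spread evenly over the gate. Clusters were made without ATF3, the genes of the rule, the listed genes, and mitochondrial and ribosomal protein genes. Cluster 4, of 124 cells, held 63 members, which was 42.9% of all members and 50.8% of the cluster, but only 35 comparison cells, or 1.73% of them. Cluster 9 held 27 members (18.4%), and clusters 5 and 8, which held 23.3% and 18.4% of the comparison cells, held 7 and 4 members. On average 29.7% of the 15 nearest neighbours of a member were members, against 2.11% for a comparison cell, while 36 members (24.5%) had no member among their neighbours. The clusters used genes that go with the ATF3 split, so these shares describe the cells and test nothing.

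**Figure D4:**
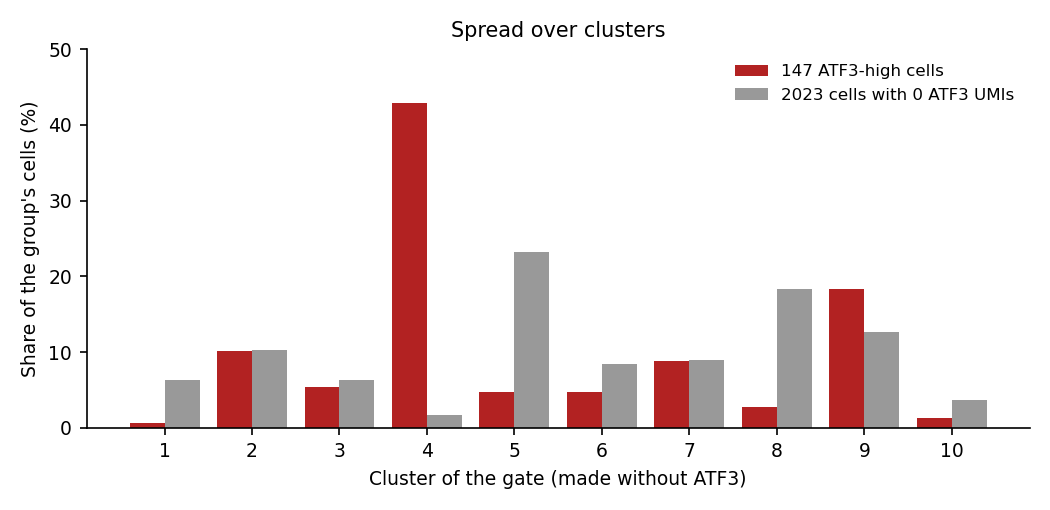
Share of the 147 ATF3-high cells (red) and of the 2023 comparison cells (grey) in each of 10 clusters of the gate, in percent. Cluster 4 holds 42.9% of the ATF3-high cells and 1.73% of the comparison cells.

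Members within cluster 4 and members elsewhere differed in level. ATF3 was at 193 CPM in the 63 members of cluster 4 and 115 CPM in the other 84. EDN1 was at 557 and 177 CPM and SAT1 at 1245 and 272 CPM. HBEGF was at 119 and 31.2 CPM, the latter below the 36.2 CPM of PC9-like naive-like cells. ANKRD1 had the other order, at 83.1 CPM in cluster 4 and 177 CPM elsewhere, as did TAGLN at 23.0 and 87.5 CPM. The 35 comparison cells of cluster 4, with no ATF3 UMI, also held more of these RNAs than comparison cells elsewhere, with EDN1 at 144 against 42.2 CPM, SAT1 at 681 against 163 CPM and GADD45A at 457 against 179 CPM.

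The contrast was therefore repeated on each side, an alternative chosen after seeing the data. Outside cluster 4, 84 members against 1988 comparison cells gave 58 genes 2-fold higher when all genes of that contrast were tested anew, and 0.535% higher and 0.0922% lower of the 10845 genes tested in the whole gate. Within cluster 4, 63 members against 35 comparison cells, the shares were 1.68% higher and 1.96% lower, with few cells on either side. Of the 145 higher genes, 145 kept their sign outside cluster 4 and 137 within it. Both sides are parts of the contrast that chose these genes, so the counts describe them and test nothing. The median log2 ratio of all genes was 0.07 outside cluster 4 and -0.06 within it. Of the higher genes 47 passed 2-fold outside and 39 within, and 15 passed in both. These 15 were EDN1, HBEGF, PMAIP1, GADD45A, GDF15, SOX9, MAFF, FOSB, DUSP1, DDIT3, THBS1, CCN1, RASSF1, PTGER4 and KRTAP3-1; the last 3 fall outside the rule for named genes. LY6D and ADIRF were 2-fold lower in both. EDN1 had log2 ratios of 1.91 within and 1.94 outside cluster 4, SAT1 0.86 and 0.72, and ZFP36L2 0.66 and 1.35. The median of immediate early genes was 0.74 and 0.69, that of AP-1 subunits 0.60 and 0.77, and that of cholesterol synthesis genes 0.01 and 0.45. For the ATF4 targets it was 0.33 within and 0.38 outside cluster 4.

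How many of these genes a single member held at once was counted over the 12 with the highest ratios. A median member exceeded the upper quartile of the comparison cells in 9 of the 12 genes, a comparison cell in 3 and a cell between in 4. The comparison cells set this quartile, so their own count of 3 follows largely from the limit. At least 9 of the genes were exceeded in 75 members (51.0%) and 28 comparison cells (1.38%), and 3 or fewer in 10 members (6.80%) and 1353 comparison cells (66.9%). In cluster 4 the share of members at 9 or more was 82.5%, against 27.4% of members in other clusters. The genes were chosen from these cells, and the counts describe how the members vary.

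The same split by ATF3 was made among H358-like cells, which lie outside the gate. Among H358-like cells with CTSS at 50 CPM or more (persister-like), 57 ATF3-high cells stood against 722 with no ATF3 UMI, with medians of 22035 and 15311 UMIs. Of 11503 genes, 0.278% were 2-fold higher and 0.252% were 2-fold lower. Among those below 50 CPM of CTSS (naive-like), 77 cells stood against 1074, at 33206 and 40429 UMIs, and 0.314% of 10811 genes were higher and 0.37% lower.

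EDN1 and HBEGF were 2-fold higher with ATF3 in all 3 kinds of cells. In H358-like persister-like cells EDN1 was at 69.9 and 9.03 CPM (log2 ratio 2.42) and HBEGF at 40.05 and 4.63 CPM (2.23). In H358-like naive-like cells EDN1 was at 37.7 and 10.0 CPM (1.51) and HBEGF at 15.7 and 5.06 CPM (1.04). CXCL8 was at 49.5 and 4.70 CPM (2.49) in the persister-like group, where EREG (1.31) and TNFAIP3 (1.47) also passed 2-fold. A CXCL8 UMI was found in 43 of all 947 H358-like persister-like cells (4.54%), so its level there rests on few cells. Of the 145 genes, 127 were measured in H358-like persister-like cells and 103 of these had the same sign, but 9 passed 2-fold, which was 6.21% of the PC9-like list and 28.1% of the 32 genes of the H358-like list. In naive-like H358-like cells 5 of 34 were shared: EDN1, HBEGF, CCN1, FOS and FOSB. The median ratio of the PC9-like list was 0.30 and 0.26 in the H358-like groups, against 0.03 and 0.08 over all genes.

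Other leading genes did not pass 2-fold in H358-like cells. SGK1 had ratios of 0.40 and -0.18 in the persister-like and naive-like groups, SAT1 -0.22 and 0.19, TOB1 -0.11 and 0.28, and ZFP36L2 0.02 and 0.53. PMAIP1 was at 0.55 and 0.58, and GADD45A at 0.75 and 0.08. CLIC3 (-1.38) and S100A2 (-1.36) were 2-fold lower in the persister-like group and LY6D (-1.18) in the naive-like one. Differences between the cell lines were not tested.

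**Figure D5:**
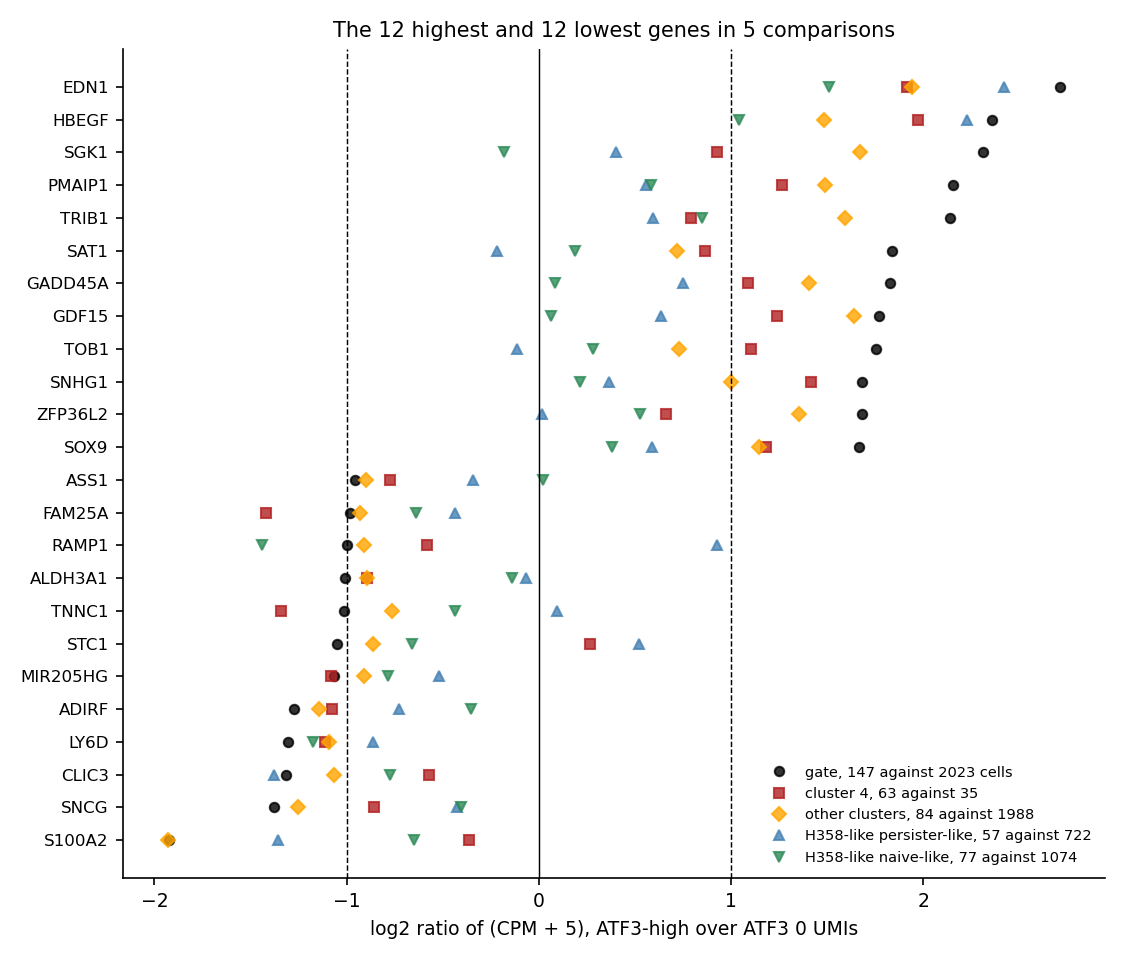
Log2 ratio of (CPM + 5) of ATF3-high cells over cells with no ATF3 UMI (x axis) for the 12 highest and 12 lowest genes of the gate (y axis), in the gate, within and outside cluster 4, and in 2 groups of H358-like cells. EDN1 and HBEGF exceed 1 in every comparison, while SAT1 and TOB1 lie between -0.22 and 0.28 in the H358-like groups.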

How the data were processed

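Gene expression was measured by 10x Genomics single-cell RNA sequencing of 1 pooled run with a hashtag library. The authors deposited a matrix of UMI counts per gene and barcode, made with Cell Ranger 7.1.0 (file header) on hg38 and not normalized; its 36601 genes and 8748 barcodes were used as deposited. Barcodes have no population label here, and the list of hashtags was not used.

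The limits of 1000 genes and 20% mitochondrial UMIs left 8540 cells. UMIs were summed over the cells of a group, scaled to CPM and compared as log2 of (CPM + 5) over genes at 5 CPM or more in either group; 2-fold was the limit for calling a gene. Poisson intervals of levels and Clopper-Pearson intervals of shares are exact at 95%. The interval of a log2 ratio pairs opposite ends of the 2 Poisson intervals and is wider than a 95% interval. All intervals cover counting error only. Doublets were called with Scrublet (635 of 8540 cells, 7.44%) and kept. Clusters were Leiden clusters at a resolution of 0.8 on 30 principal components of 2000 variable genes (scanpy 1.11.5). Shares at equal depth used cells thinned to 5000 UMIs; 1 member and 10 comparison cells were shallower and left out. TMM factors were from edgeR 4.0.16. Promoter windows were from RefSeq (GRCh38.p14); all 4266 windows on 2 chromosomes matched hg38. The contrast was also run on simulated counts with known fold changes. These counts were drawn from the summed comparison cells with counting error only, so they cannot speak to uneven cells or clusters.

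Named genes were the 12 highest and 12 lowest log2 ratios at 50 CPM or more (without the rule's, mitochondrial, ribosomal protein and clone-named genes), up to 4 genes of each of 39 lists by size of ratio, and a fixed set (ATF3, ATF4, DDIT3, JUN, FOS, FOSL1, EGR1, HOPX, ANKRD1, RARRES1, CDKN1A, GDF15 and the rule's genes). A few genes and 1 list that these rules select are not reported here. The members and lists were chosen with earlier results of these data known. With 1 run, cells are no replicates, so no test was run. Alternatives numbered 14, with 1 more added after seeing the data.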

Additional observations from a re-analysis of the deposited data

How the results depend on the processing

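Of 15 alternatives, 1 (leaving out cluster 4) was chosen after seeing the data. The 145 genes 2-fold higher became 27 with comparison cells weighted to the members' clusters, 58 without cluster 4, 220 among cells with no cycling score, 297 with a pseudocount of 1 CPM and 318 with ATF3 at 3 UMIs and 100 CPM. The 17 genes 2-fold lower became 9 against all other cells of the gate, 10 with the cluster weights and 10 without cluster 4, 29 with TMM factors, 30 when scaled without mitochondrial and ribosomal protein genes, 32 with the mean of the cells' own CPM, 53 among cells with no cycling score, 67 with the stricter ATF3 limit and 79 with the smaller pseudocount. Under the cluster weights 26 of the 27 higher genes and 1 of the 10 lower genes were among the main calls. The median of AP-1 subunits moved from 0.71 to 0.95 with the stricter ATF3 limit and 1.01 among cells with no cycling score, and that of immediate early genes from 0.93 to 1.14 with the mean of cells, 1.17 with the smaller pseudocount and 0.71 without cluster 4. ATF4 targets were at 0.33 with no filter on low values. Cholesterol synthesis genes were at 0.17 with the cluster weights, 0.64 among cells with no cycling score and 0.65 at 20 CPM or more. G2/M genes moved from -0.17 to 0.23 among cells with no cycling score and 0.20 without cluster 4. The medians of 12 of 39 lists, each within 0.17 of 0, took the other sign in at least 1 alternative. Antioxidant genes reached -0.049 and cytosolic ribosomal protein genes 0.027 with the cluster weights. The other 10 were the BCL2 family (-0.09 to 0.26), G2/M (-0.26 to 0.23), S phase (-0.20 to 0.20), alveolar type 1 (-0.06 to 0.23), aminoacyl-tRNA synthetase (-0.02 to 0.24), unfolded protein response (-0.04 to 0.11), glycolysis (-0.17 to 0.10), histone (-0.14 to 0.11) and lysosome genes (-0.004 to 0.15) and nuclear noncoding RNAs (-0.15 to 0.22). No named gene past 2-fold changed sign in 2475 recalculations over the named genes, of which 495 lay outside the main counting interval. The cause of these shifts was not tested. No paired analysis was possible because the run is 1 sample.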

Other observations

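Both measured GADD45 genes were 2-fold higher, GADD45A as described and GADD45B, a partner that is induced by TGF-beta and NF-kB, at 44.5 and 19.4 CPM (log2 ratio 1.02). Glucocorticoid-responsive genes had a median of 0.95 over 4 genes, with SGK1 and DUSP1 past 2-fold, while TSC22D3, which encodes the glucocorticoid-induced leucine zipper GILZ, was at 35.5 and 25.2 CPM (0.42). Hypoxia genes had a median of 0.32 over 14 genes and 1 past 2-fold, the peptide hormone gene ADM at 81.8 and 34.8 CPM (1.13). Heat shock genes had a median of 0.28 over 16 genes and 1 past 2-fold, the small heat shock protein gene HSPB8 at 49.8 and 15.5 CPM (1.42).

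Among the D-type cyclins, CCND1 was at 184 and 250 CPM (log2 ratio -0.43). For 20 lysosome and autophagy genes the median was 0.14, with GABARAPL1, an autophagosome protein, at 361 and 181 CPM (0.97). Nucleolar ribosome biogenesis genes (0.13 over 18), antioxidant genes of NRF2 (0.12 over 16), alveolar type 1 genes (0.12 over 8), histone genes (-0.04 over 9), nuclear-retained long noncoding RNAs (-0.04 over 5), glycolysis genes (-0.07 over 15) and S phase genes (-0.08 over 42) had 0 genes past 2-fold in either direction. The S phase median was 0.36 within cluster 4 and 0.20 outside it. Among the noncoding RNAs, NEAT1, which builds paraspeckles, was at 2325 and 1342 CPM (0.79) and MALAT1 at 15352 and 16262 CPM (-0.08). The 6 measured genes of the list drawn up for H358-like cells had a median of -0.24, with the protease gene MMP7 at 1.22 and 8.49 CPM (-1.12) and 83.3% of the members' MMP7 UMIs in 1 cell.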
